A study of Mus musculus with 6 samples.

Results

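The genes described here make and sense prostaglandins and leukotrienes, the lipid mediators derived from arachidonic acid. They are the cyclooxygenases Ptgs1 and Ptgs2, the prostaglandin E synthases Ptges, Ptges2 and Ptges3, the prostaglandin E2 receptors Ptger2 and Ptger4, the 5-lipoxygenase Alox5, its activating protein Alox5ap and the cytosolic phospholipase Pla2g4a. These 10 genes, of 23462 genes named on the arrays, were chosen by name for their place in the pathway, at a time when earlier results of the same contrast between arrays were known. The fold changes, calls and p-values of the members are therefore descriptive, and no test was run over the list. Every probe other than a control whose accession belongs to one of the genes in RefSeq was kept, which gave 14 of 56605 probes.

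The 6 RNA samples came from BV2, an immortalized mouse microglial line, all given LPS (lipopolysaccharide), a bacterial membrane component that provokes an inflammatory response. The 3 control samples carried no PGC-1α overexpression and the 3 others overexpressed PGC-1α, a transcriptional coactivator known for mitochondrial biogenesis. By the culture methods, a lentivirus with a ubiquitin (Ubi) promoter delivered either the PGC-1α coding sequence or a negative control, and the PGC-1α cells were selected with puromycin. LPS was used at 500 ng/ml for 6 h in the culture protocol, which does not mention the array samples. No array of cells without LPS was analysed here, so that the response to LPS itself cannot be read from these values. Nothing in the labels says whether the replicates were separate cultures, and the p-values measure only the spread between these samples.

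Pla2g4a releases arachidonic acid from membrane phospholipids. Cyclooxygenases turn it into prostaglandin H2, with Ptgs1 usually constitutive and Ptgs2 (COX-2) induced by inflammatory stimuli, and the E synthases convert prostaglandin H2 into prostaglandin E2, which signals through the G protein-coupled receptors encoded by Ptger2 (EP2) and Ptger4 (EP4), both of which raise cyclic AMP. In the other branch, Alox5 acts with the membrane protein encoded by Alox5ap to start leukotriene synthesis. In microglia and macrophages, LPS is a classical inducer of Ptgs2.

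The promoters of Ptgs2 and Ptger4 are shown because their transcripts differed in opposite directions between the groups, and that of Ptgs1 as the constitutive counterpart of Ptgs2. Each sequence runs 5′ to 3′ on the strand of the gene, from 250 bases before to 50 bases after the transcript start in RefSeq (GRCm38.p6), at chr2:36230176-36230475 (+) for Ptgs1, chr1:150099781-150100080 (+) for Ptgs2 and chr15:5244138-5244437 (-) for Ptger4. Capitals mark matches, on either strand, to any of 7 motifs.
Ptgs1: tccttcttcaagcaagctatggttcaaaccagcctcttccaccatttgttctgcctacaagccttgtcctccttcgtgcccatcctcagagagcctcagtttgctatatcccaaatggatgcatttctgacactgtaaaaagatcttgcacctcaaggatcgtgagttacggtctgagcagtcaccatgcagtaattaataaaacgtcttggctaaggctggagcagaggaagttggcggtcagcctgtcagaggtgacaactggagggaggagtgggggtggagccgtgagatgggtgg
Ptgs2: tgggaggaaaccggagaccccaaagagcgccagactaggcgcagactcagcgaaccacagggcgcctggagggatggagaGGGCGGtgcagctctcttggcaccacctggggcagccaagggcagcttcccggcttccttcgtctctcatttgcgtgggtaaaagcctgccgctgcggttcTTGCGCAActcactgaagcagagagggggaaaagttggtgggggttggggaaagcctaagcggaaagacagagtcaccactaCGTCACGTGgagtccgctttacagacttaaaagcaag
Ptger4: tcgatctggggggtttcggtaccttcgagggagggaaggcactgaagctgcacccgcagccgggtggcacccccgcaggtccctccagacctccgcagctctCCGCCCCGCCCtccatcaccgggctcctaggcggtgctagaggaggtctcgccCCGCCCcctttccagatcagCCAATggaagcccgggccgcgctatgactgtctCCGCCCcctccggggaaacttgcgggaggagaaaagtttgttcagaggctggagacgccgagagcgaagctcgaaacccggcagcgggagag

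The motifs searched were the CRE core TGACG, the E-box CACGTG, the C/EBP palindrome TTGCGCAA, the AP-1 site TGANTCA, the element AAGGTCA of oestrogen-related receptors (ERR), which are partners of PGC-1α, the GC box GGGCGG and the CCAAT box. In the Ptgs2 window, the C/EBP palindrome began 69 bases before the start and a GC box 170 bases before it. A CRE core on the opposite strand and an E-box overlapped each other, from bases 14 and 17 after the start. Of 32851 mouse promoter windows of the same length, 60 (0.183%) held the C/EBP palindrome, 20.8% the CRE core, 7.15% the E-box and 35.7% the GC box. The Ptger4 window held 4 GC boxes, all on the opposite strand, and a CCAAT box 75 bases before the start, a motif found in 37.4% of the windows. The Ptgs1 window held none of the 7 motifs. No AP-1 site (7.81% of the windows) or ERR element (4.72%) was present in any of the 10 windows matched to 9 of the members. These matches describe letters in a short window only.

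The arrays were Agilent mouse gene expression arrays read in 1 colour, with 59305 spots other than controls on each and 41122 to 45165 of them well above background. The 75th percentile of the intensity was 1617 to 1893 on the control arrays and 856 to 1268 on the overexpression arrays. Both groups had 2 arrays on slide 1 and 1 array on slide 2. Values below are log2 intensities relative to the 75th percentile of the same array, and differences are overexpression minus control. With this scaling the median difference of all 39296 tested probes was 0.25, and after quantile normalization it was 0.05. Ppargc1a, which encodes PGC-1α, was near background on both of its probes, with differences of 1.14 (exact permutation test, two-sided p = 0.1, the smallest that 3 against 3 arrays can give) and 0.26 (p = 0.5, same test), and neither probe was tested in the fit. The targeted gene therefore gave no firm check of the labels, and directions refer to the arrays labelled PGC-1α overexpression.

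The cyclooxygenase Ptgs2 and the receptor Ptger4 differed most between the groups among the members, in opposite directions. Ptgs2 was 3.23-fold higher and Ptger4 2.74-fold and 3.59-fold lower, by its 2 probes, on the overexpression arrays. Alox5ap was 1.53-fold higher by 1 of its probes, a value that came down to a log2 difference of 0.20 after quantile normalization. Ptgs1, the 3 Ptges probes, Ptges2 and Pla2g4a did not pass the threshold, an adjusted p of 0.05 in limma over all tested probes.

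**Figure D1:**
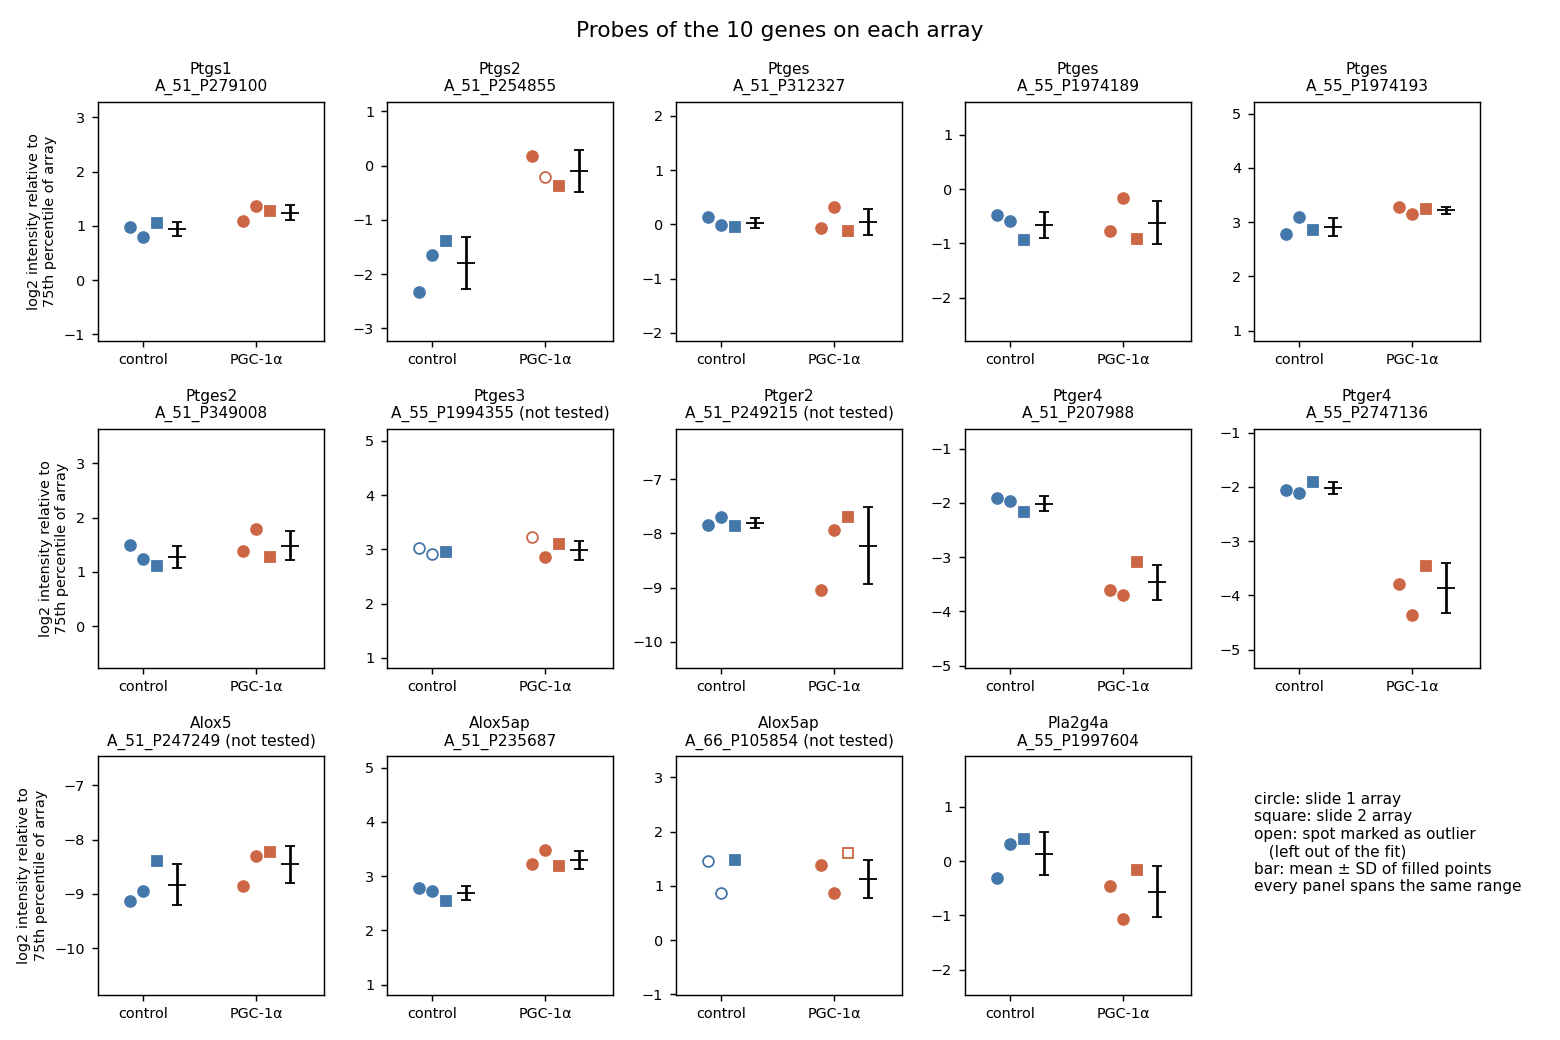
Log2 intensity of each of the 14 member probes relative to the 75th percentile of its array (y axis), for the 3 control and the 3 PGC-1α overexpression arrays, with the mean ± SD of the filled points. Circles are slide 1 arrays, squares slide 2 arrays and open points spots marked as outliers, the 4 probes marked as not tested included. Ptgs2 sits between -2.33 and -1.39 on the control arrays and at 0.17 and -0.37 on the overexpression arrays that gave a value, and both Ptger4 probes sit lower on every overexpression array than on any control array.

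Ptgs2, the inducible cyclooxygenase, was measured by 1 probe (A_51_P254855), detected well above background on each of the 6 arrays. Its scaled log2 intensity was -2.33, -1.65 and -1.39 on control arrays 1, 2 and 3, and 0.17 and -0.37 on overexpression arrays 1 and 3. The spot on overexpression array 2 was marked as an outlier by the scanner software and left out; its value was -0.20. Every overexpression value lay above every control value, and control array 1 was the lowest of all. The means were -1.79 ± 0.48 (SD, n = 3) and -0.10 ± 0.39 (SD, n = 2), a log2 difference of 1.69 (95% interval 0.96 to 2.42, standard error 0.31, adjusted p = 0.0049 from limma). With the marked spot kept, the difference was 1.66 (adjusted p = 0.0021 from limma). Quantile normalization left it at 1.70 (adjusted p = 0.0062). On slide 1 the difference was 1.98, with the marked spot kept, and on slide 2 it was 1.02 from 1 array of each group, so that its size was not the same on the slides.

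Ptgs1, the constitutive cyclooxygenase, was at 0.98, 0.79 and 1.06 on the control arrays and at 1.09, 1.36 and 1.28 on the overexpression arrays. The groups did not overlap, with a gap far smaller than that of Ptgs2. The log2 difference was 0.30 (95% interval -0.03 to 0.63, adjusted p = 0.11 from limma), close to the median of 0.25 over all tested probes, and it was 0.19 after quantile normalization.

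Ptger4, which encodes the EP4 receptor, had 2 probes, both detected well above background on each of the 6 arrays. The probe A_51_P207988 was at -1.91, -1.96 and -2.17 on the control arrays and at -3.61, -3.70 and -3.09 on the overexpression arrays. The probe A_55_P2747136 was at -2.06, -2.11 and -1.91 on the control arrays and at -3.80, -4.36 and -3.45 on the overexpression arrays. On both probes the control arrays lay close together, the overexpression arrays lay below all of them, and overexpression array 3 was the nearest to the controls. The log2 differences were -1.45 (standard error 0.19, adjusted p = 0.0010 from limma) and -1.84 (standard error 0.23, adjusted p = 0.00083 from limma), and -1.52 and -1.93 after quantile normalization. Normexp, a model-based background correction, was run on the median spot and background signals, with an added offset that lifts dim spots. The differences were then -0.87 and -1.001, both still past the threshold. Since the signal it started from was another one, the parts of input, correction and offset in this change cannot be told apart. On slide 1 the differences were -1.72 and -1.99, and on slide 2, from 1 array of each group, -0.92 and -1.55.

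Ptger2, which encodes the EP2 receptor, was not well above background on any array. Its scaled values, between -9.03 and -7.70, overlapped between the groups and carry no level. Of the pair of cyclic AMP-raising receptors for prostaglandin E2, only Ptger4 could therefore be compared.

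The prostaglandin E synthases showed no difference that passed the threshold on any tested probe. Ptges, the inducible membrane synthase that is commonly coupled to Ptgs2, had 3 probes. Its brightest probe (A_55_P1974193) was at 2.78, 3.09 and 2.85 on the control arrays and at 3.27, 3.14 and 3.24 on the overexpression arrays, without overlap, and the log2 difference of 0.31 (adjusted p = 0.091 from limma) became -0.12 (adjusted p = 0.55) after quantile normalization. The other probes, A_51_P312327 and A_55_P1974189, overlapped between the groups and differed by 0.01 (95% interval -0.35 to 0.38) and 0.04 (95% interval -0.47 to 0.56). The upper ends of these intervals lie below 0.96, the lower end of the interval for Ptgs2.

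Ptges2, another membrane-associated E synthase, was at 1.49, 1.24 and 1.11 on the control arrays and at 1.39, 1.79 and 1.28 on the overexpression arrays. The groups overlapped, and the log2 difference was 0.21 (95% interval -0.21 to 0.62, adjusted p = 0.36 from limma). Ptges3, the cytosolic synthase and Hsp90 co-chaperone, was bright on all 6 arrays, but its spots were marked as outliers on 3 of them, and it was not tested. With those spots kept, it was at 3.04, 2.92 and 2.95 on the control arrays and at 3.23, 2.86 and 3.11 on the overexpression arrays, a difference of 0.10 (adjusted p = 0.57 from limma).

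In the leukotriene branch, the enzyme and its activating protein stood far apart in detection. Alox5 was not well above background on any array, with overlapping scaled values between -9.14 and -8.22. Alox5ap, in contrast, was detected well above background on each array by both of its probes. The probe A_51_P235687 was at 2.79, 2.73 and 2.53 on the control arrays and at 3.22, 3.49 and 3.19 on the overexpression arrays. These groups did not overlap, and the log2 difference was 0.61 (95% interval 0.28 to 0.95, adjusted p = 0.010 from limma). It was 0.20 (adjusted p = 0.23) after quantile normalization and 0.19 (adjusted p = 0.24) in the authors' normalized values, so the call depends on the scaling. The 5 microglial markers called higher (Itgam, Tyrobp, Csf1r, Trem2 and Cd68), with differences of 0.46 to 0.75, lay between -0.16 and 0.27 after quantile normalization. The other markers tested were Aif1 (-0.00), Adgre1 (-0.13) and Ptprc (-0.33), which did not pass, and Tmem119 (-2.68, and -2.71 after quantile normalization). The other Alox5ap probe (A_66_P105854) had outlier marks on 3 arrays and was not tested. With those spots kept it was at 1.46, 0.87 and 1.47 on the control arrays and at 1.38, 0.88 and 1.61 on the overexpression arrays, a difference of 0.02 (adjusted p = 0.95 from limma), and these groups overlapped. The probes of Alox5ap thus gave different readings.

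Pla2g4a, the cytosolic phospholipase that supplies both branches, was at -0.32, 0.32 and 0.41 on the control arrays and at -0.45, -1.07 and -0.16 on the overexpression arrays. Control array 1 lay below overexpression array 3, so the groups overlapped. The log2 difference was -0.70 (95% interval -1.34 to -0.06, adjusted p = 0.062 from limma). Without control array 1 it was -0.93 (adjusted p = 0.033) and without overexpression array 3 it was -0.90 (adjusted p = 0.030). With any other array left out it did not pass, with a difference of -0.45 (adjusted p = 0.17) without overexpression array 2, -0.56 (adjusted p = 0.19) without control array 3, -0.61 (adjusted p = 0.16) without control array 2 and -0.75 (adjusted p = 0.11) without overexpression array 1. With the slide as a block it was -0.70 with an adjusted p of 0.026, so that its call hangs on the model. Within slides it was -0.76 on slide 1 and -0.57 on slide 2.

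**Figure D2:**
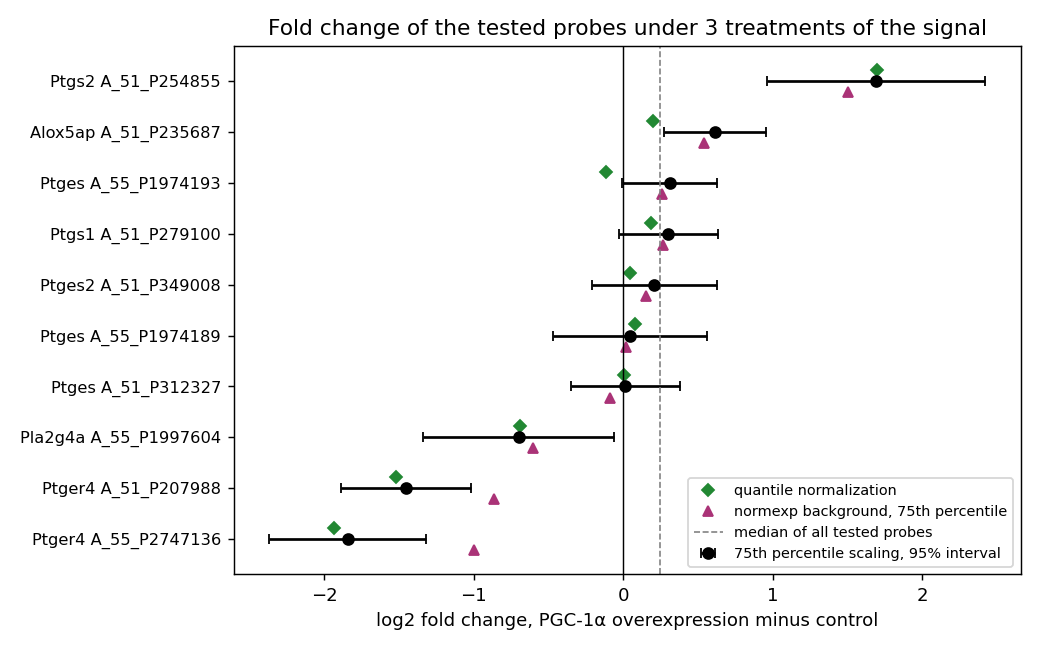
Log2 difference (overexpression minus control, x axis) of each tested member probe, with its 95% interval from limma. Diamonds give the value after quantile normalization, triangles the value after normexp, and the dashed line the median of all tested probes. Ptgs2 at 1.69 and the Ptger4 probes at -1.45 and -1.84 hold their place under quantile normalization, while Alox5ap moves from 0.61 to 0.20.

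Of the 14 member probes, 10 probes of 7 genes were tested, each of them detected well above background on the whole set of 6 arrays. The 4 probes not tested were those of Alox5 and Ptger2, the Ptges3 probe and 1 Alox5ap probe. Of the 10, 2 probes (Ptgs2 and Alox5ap) were higher and 2 (both Ptger4) were lower, against 35.2% of all tested probes higher and 18.2% lower. The share called among the members, 40%, was thus not above that of the arrays as a whole. After quantile normalization 1 member probe was higher and 2 were lower, against 22.7% and 20.4% of all probes. The median log2 difference of the 10 probes was 0.13, and 0.02 after quantile normalization, beside 0.25 and 0.05 for all probes. The groups did not overlap on 6 of the 10 probes, 4 higher (Ptgs2, Ptgs1, Alox5ap and the brightest Ptges probe) and 2 lower, whereas 63.9% of all tested probes did not overlap. When a 2-fold change was asked for in addition, a threshold set after seeing the data, Ptgs2 and both Ptger4 probes remained, against 8.07% of all probes higher and 8.34% lower.

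**Figure D3:**
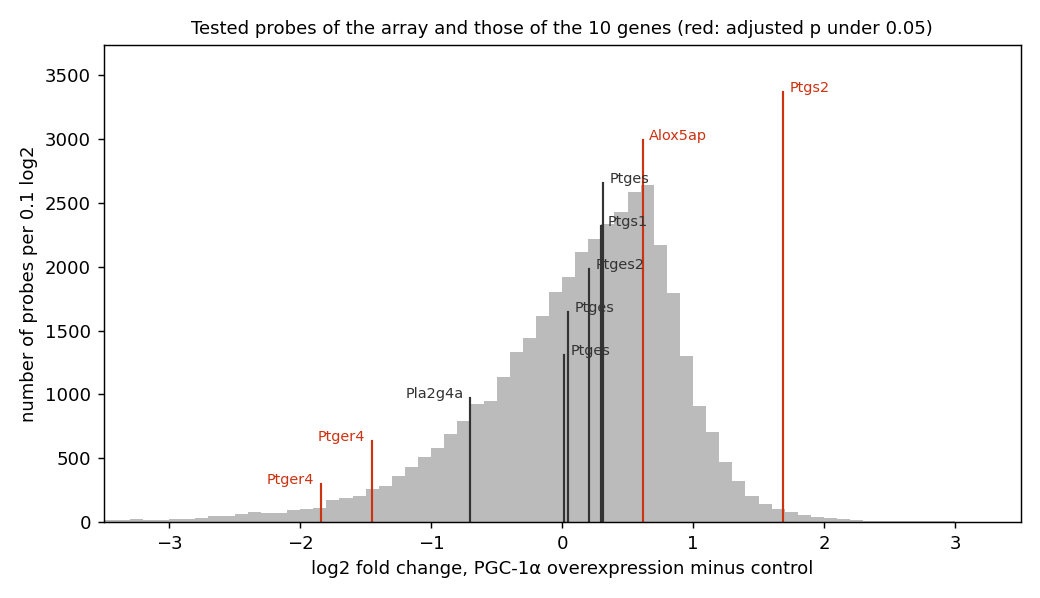
Distribution of the log2 difference over all 39296 tested probes (x axis, log2; y axis, number of probes), with the 10 tested member probes drawn as vertical lines whose heights serve the labels only. Ptgs2 lies in the right tail at 1.69 and the Ptger4 probes in the left tail, and the other members lie between -0.70 and 0.61, around the median of 0.25.

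The size of the Ptgs2 and Ptger4 differences moved with the processing, whereas their direction and call did not where they could be tested. Over the tested settings, the Ptgs2 difference ran from 1.42 to 1.89 and the Ptger4 differences from -1.72 to -0.87 and from -2.05 to -1.001. Ptgs2 had too few values for a test on slide 1 alone and without overexpression array 1 or 3, since its spot on overexpression array 2 was already left out. Alox5ap ran from 0.16 to 0.67 and passed wherever it was tested except after quantile normalization, with or without normexp, and in the authors' values. Pla2g4a ran from -0.93 to -0.45, always negative.

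The 5 genes whose centred profiles over the 6 arrays lay nearest to that of Ptgs2, with marked spots kept, were Ear6, H2al2b, Sprr1b, Megf10 and Olfr812, out of 17172 genes by their brightest probe. Their Euclidean distances from Ptgs2, in log2 units over 6 arrays, were 0.44, 0.44, 0.52, 0.56 and 0.58. The difference between the groups weighs heavily in such a distance, and that of the 5 genes was 1.39 to 1.69. No other tested member had a difference above 0.61, so their absence from the nearest 5 was fixed in advance. The list therefore says nothing about shared regulation.

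The rest of the pathway was read from 52 further genes of arachidonate release, prostanoid and leukotriene synthesis, transport, breakdown and reception. Of these, 51 were matched to probes, 38 were tested by their brightest tested probe, 11 were higher and 7 lower. Over all 17173 genes read this way, 34.6% were higher and 18.4% lower. After quantile normalization 7 were higher and 6 lower, against 21.2% and 20.9% of all genes, and 12 genes passed in the same direction both ways. The median log2 difference of the 38 genes was 0.30, and 0.10 after quantile normalization. The 13 genes with no tested probe were Pla2g4c, Pla2g4d, Pla2g2f, Ptger1, Ptger3, Ptgdr, Ptgfr, Hpgd, Ggt5, Cysltr2, Alox12, Alox8 and Alox12e.

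Among the 7 other prostanoid receptors, 3 were tested and 2 were lower, beside 18.4% of all genes by their brightest tested probe. Ptgir, the prostacyclin receptor, which like EP4 raises cyclic AMP, was at -1.06 and -0.61 on control arrays 2 and 3 and at -2.83, -3.06 and -2.68 on the overexpression arrays. Its control array 1, left out as an outlier, was at -0.65. The groups were far apart, with a log2 difference of -2.02 (standard error 0.20, adjusted p = 0.00061 from limma) and -2.04 after quantile normalization. Ptgdr2, the DP2 receptor for prostaglandin D2, was at -2.14, -2.27 and -2.19 on the control arrays and at -3.44, -3.14 and -3.503 on the overexpression arrays. Its difference was -1.16 (adjusted p = 0.0009 from limma), and its other probe gave -1.58. That other probe was well above background on only 2 of 3 overexpression arrays, and normexp brought it to -0.31 (adjusted p = 0.077), without a call. Tbxa2r, the thromboxane receptor, differed by 0.48 (adjusted p = 0.060) and did not pass. Ptger1, Ptger3, Ptgdr and Ptgfr were not tested, nor was the member Ptger2. Other receptors for prostaglandin E2 and prostaglandin D2 were therefore not compared, and the lower calls on Ptger4, Ptgir and Ptgdr2 describe these genes only.

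Of the 7 terminal prostanoid synthases, all were tested, with 2 higher and 2 lower. Both prostaglandin D synthases were lower. Ptgds, the lipocalin-type enzyme, was at 1.12, 1.00 and 1.16 on the control arrays and at 0.09, 0.07 and 0.46 on the overexpression arrays, a difference of -0.89 (adjusted p = 0.0031 from limma). Hpgds, the haematopoietic type, was at -2.04, -1.53 and -1.19 against -2.08, -2.74 and -2.10, with groups that nearly touched, and its difference of -0.72 (adjusted p = 0.047 from limma) missed the threshold after quantile normalization (adjusted p = 0.055). Prxl2b, a prostaglandin F synthase, was higher by 1.54 (adjusted p = 0.0005 from limma). It was well above background on only 2 of 3 control arrays, and normexp brought the difference to 0.79. Akr1b3, also called a prostaglandin F synthase, was higher by 0.55 before and differed by -0.07 after quantile normalization. Its other probe was higher by 0.79 (adjusted p = 0.0048) and differed by 0.22 after quantile normalization, which did not pass either. Ptgis and Tbxas1, which make prostacyclin and thromboxane, did not pass.

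Among 13 tested genes of arachidonate release and handling, 4 were higher and 3 lower, and the phospholipases split. The secreted Pla2g2d and Pla2g5 were lower by -0.81 (adjusted p = 0.0034 from limma) and -0.68 (adjusted p = 0.011), and the cytosolic-type Pla2g4f by -0.39 (adjusted p = 0.042), which missed the threshold after quantile normalization (adjusted p = 0.051). The other Pla2g2d probe showed a difference of -0.00, while the other Pla2g5 probe gave -0.55. Pla2g4b, Pla2g4e, Pla2g12a and the arachidonate-activating Acsl4 were higher, by 0.64 to 0.81, but Pla2g12a differed by 0.24 (adjusted p = 0.15) after quantile normalization and did not pass. The other Pla2g4b probe, at -0.28, did not pass. Of the other Acsl4 probes, one was higher by 0.67 (adjusted p = 0.011) and one, at -0.24, did not pass. Mgll, which frees arachidonate from 2-arachidonoylglycerol, gave 0.55 (adjusted p = 0.061) by its brightest probe and -0.94 (adjusted p = 0.0010) by the other, which normexp brought to -0.36 (adjusted p = 0.029). Over all genes with several tested probes, 324 of 6043 had probes called in both directions.

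In the leukotriene branch, none of the 5 tested synthesis and processing genes (Lta4h, Ltc4s, Ggt1, Dpep1 and Dpep2) passed the threshold, with differences from 0.09 to 0.64. Of these genes, 2 of them, Ltc4s and Dpep1, had an unadjusted p under 0.05, and none passed after quantile normalization. Of the leukotriene receptors, the cysteinyl leukotriene receptor Cysltr1 was higher, at -3.51, -3.32 and -3.84 on the overexpression arrays against -4.51, -4.48 and -5.14, a difference of 1.15 (adjusted p = 0.0047 from limma). Ltb4r1 and Ltb4r2 did not pass. Of the other lipoxygenases, Alox12b and Alox15 were higher, by 1.01 (adjusted p = 0.0033) and 0.87 (adjusted p = 0.0031), and Aloxe3 differed by -0.20 and did not pass. Alox15 was dim, at -5.78, -5.58 and -5.69 on the control arrays, and normexp brought its difference to 0.63 (adjusted p = 0.0020 from limma). In transport and breakdown, the prostaglandin transporter Slco2a1 was higher by 0.89 (adjusted p = 0.045), with overlapping groups, only 2 of 3 control arrays well above background and an adjusted p of 0.086 after quantile normalization. The reductase Ptgr1 was higher by 0.45, and differed by 0.10 without passing after quantile normalization. Ptgr2, another reductase, gave 0.19 (adjusted p = 0.20) by its brightest probe and 0.69 (adjusted p = 0.0048) by the other.

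**Figure D4:**
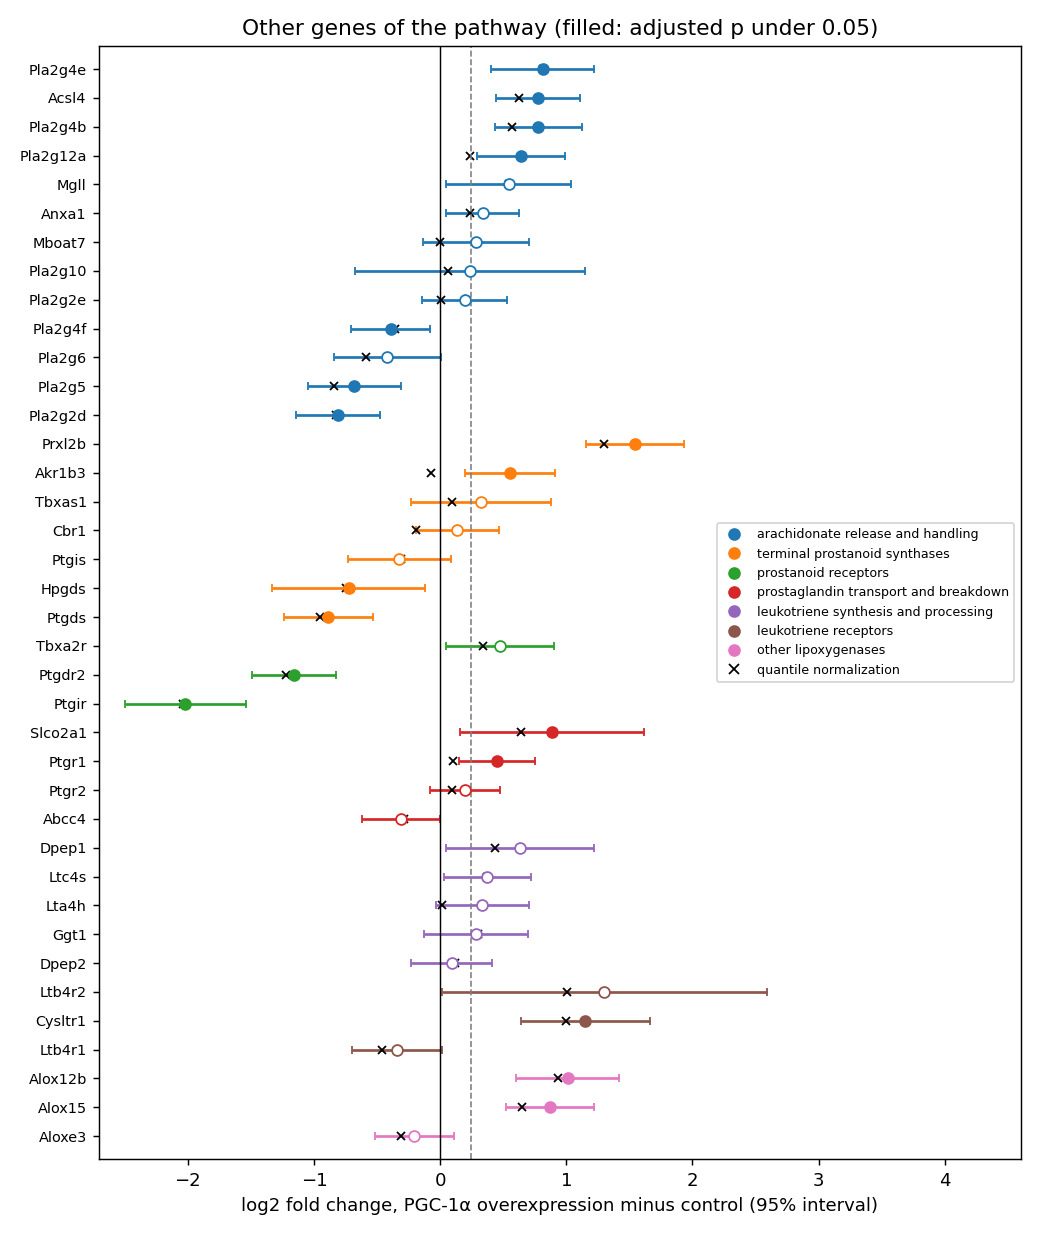
Log2 difference (overexpression minus control, x axis) with its 95% interval for the 38 tested genes of the pathway other than the members, coloured by role; filled points passed the adjusted p of 0.05, crosses give quantile normalization, and the dashed line marks the median of all tested probes, 0.25. Ptgir and Ptgdr2 lie farthest to the left, at -2.02 and -1.16, and Prxl2b at 1.54 is the highest of the genes that passed.

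Detection and differences were also read on 11 marker genes of microglia and macrophages. Of these, 9 were well above background on all 6 arrays, while Cx3cr1 and P2ry12, defining markers of resting microglia, were not above it on any array. Among all spots other than controls, 69.3% to 76.2% were well above background on each array. Tmem119, another such marker, was lower by -2.68 (adjusted p = 7.88e-05 from limma), and 5 markers were higher. The summed level of the list, in units of the 75th percentile, was 85.8 to 89.6 on the control and 122 to 144 on the overexpression arrays. Among 12 markers of other brain cell types, 9 were well above background on all 6 arrays, Syt1 was not above it on any, and 5 of the 10 tested were higher. Over all genes by their brightest tested probe, 34.6% were higher. Detection was thus similar for both lists, and these counts do not show the cell type of the samples. The summed level of this other list was 34.5 to 40.6 on the control and 55.5 to 72.2 on the overexpression arrays. Both sums rest on the scaling to the 75th percentile. After quantile normalization the 5 higher microglial markers lay between -0.16 and 0.27. Of the 5 higher markers of other cell types, Snap25 and Col1a1 came down to 0.08 and 0.22. Aqp4, Rbfox3 and Cldn5 were at 0.75 to 0.85. In bulk RNA of BV2, a single line, fewer cells expressing a marker and less RNA per cell cannot be told apart. The part of these marker differences in the results for Ptgs2, Ptger4 and Alox5ap was not tested.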

How the data were processed

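Gene expression was measured on 6 Agilent arrays, grouped and numbered as the labels state. The sample titles do not name the slide. Agilent Feature Extraction 11.5.1.1 had produced the deposited intensity values, subtracted for background within each array and not normalized between arrays. The authors also deposited log2 values for 42110 probes, normalized in GeneSpring by a procedure that is not given in the sources used here. The dye is Cy3 in the sample labels but Cy5 in the labelling protocol, and the files hold the green channel only.

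Each log2 intensity was set relative to its array's 75th percentile, computed without control spots. Between 149 and 1590 outlier spots an array were dropped, and spots of a probe averaged. Probes were named through their accession in a RefSeq table of GRCm38 genes (59.7% of 56605 probes matched). Testing required 2 values or more in both groups, and a signal well above background on the 3 arrays of either group. No spot was saturated. The two-sided test was that of limma (3.58.1, R 4.3.3; lmFit, then eBayes), and p-values of the 39296 probes were adjusted by Benjamini-Hochberg and read at 0.05. On simulated arrays with 37315 probes, 3 against 3, of which 200 were changed, 39% were recovered at a log2 change of 1 and 80% at 2, and 1.65% of the calls were false. Far more probes passed in the data, 21018 of 39296. The adjustment depends on that share, so the simulated rates do not carry over to this comparison. Precision is limited by having 3 arrays a group.

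The members, the pathway list, the markers and the motifs were chosen with earlier results of these data known. All members are named. Of the other pathway genes, the 12 called genes farthest from the median of all tested probes were named by rule. Values for each array are printed for only some of these. Others were named by role after their values were seen. Alternatives were quantile normalization, median scaling, normexp with an offset of 50, other filters, a block for the slide or for the replicate number, an intensity trend in the variance, the authors' values and each array left out. The normexp settings started from the median spot and background signals instead of the processed signal. Python 3.11.15, numpy 2.4.6, pandas 2.3.3 and matplotlib 3.10.9 were used for tables and plots.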

Additional observations from a re-analysis of the deposited data

How the results depend on the processing

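Ptgs2, Ptgs1, Ptges2 and both Ptger4 probes kept their direction and their side of the threshold under every alternative that could be fitted; Ptgs2 could not be tested on slide 1 alone or without overexpression replicate 1 or 3. Of 184 values of member probes that were tested under alternatives, 161 kept direction and side. On slide 2, with 1 array of each group and no test, 9 of 10 kept their direction. Alox5ap lost its call under quantile normalization (0.20), normexp with quantile normalization (0.16) and the authors' values (0.19). Pla2g4a gained one under median scaling (-0.81), normexp (-0.60), the slide as a block (-0.70) and the variance trend (-0.70), and ran from -0.93 to -0.45 with 1 array left out. The Ptges probe A_51_P312327 changed sign under median scaling (-0.096), normexp (-0.090), normexp with quantile normalization (-0.090) and on slide 2 (-0.068), and ran from -0.12 to 0.092 with 1 array left out. A_55_P1974189 did so under median scaling (-0.066) and ran from -0.18 to 0.19, and A_55_P1974193 under quantile normalization (-0.12), normexp with quantile normalization (-0.14) and the authors' values (-0.12), while the variance trend gave it a call at 0.31. The cause of these changes was not tested.

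The count of all probes past the threshold, 21018, fell to 9637 with 1 probe per gene, where fewer are tested, and to 6446 with a 2-fold change asked for, which left 5 of the 18 pathway genes. The share of calls that were higher, 65.9%, was 52.6% after quantile normalization, 76.7% after normexp, 49.0% after normexp with quantile normalization, 51.9% in the authors' values and 49.2% with a 2-fold change. The 2-fold change and keeping outlier spots were chosen after seeing the data. Deviations of same-numbered arrays correlated at -0.21, 0.00 and 0.59 across 37315 probes, and those of differently numbered arrays at -0.52 to 0.53. The arrays numbered 3, with the value of 0.59, were also the only ones on slide 2. Pairing and slide cannot be separated there, so these values do not decide whether the replicate numbers pair the samples. With the replicate number as a block, 22815 probes and 5 member probes passed, Pla2g4a among them (-0.70, adjusted p = 0.048 from limma), and no other member call changed. Dim probes such as Alox5 and Ptger2 are limited by the background.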
